A study of Mus musculus with 8 samples.

Results

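The Hox genes of sorted embryonic thymic epithelial cells (TECs) were examined across 3 populations. They were chosen by symbol: every gene named Hox, a cluster letter from a to d and a paralog number, which gave 39 genes of the 55450 in the table. No measured value entered this choice, but the family was taken up with earlier results from the same libraries known, so the calls below describe these libraries and are not independent evidence. The 39 genes were 12 anterior genes (paralog groups 1 to 4), 11 central genes (paralog groups 5 to 8) and 16 posterior genes (paralog groups 9 to 13). TECs, gated as CD45-EpCAM+ cells, were isolated at embryonic day 17 (E17) from embryos that carried 2 reporters in every group, a tdTomato knock-in at the chemokine gene Ccl21a and a Venus transgene for RANK (Tnfrsf11a), the receptor for RANK ligand. The populations were CCL21+RANK- (tdTomato-positive, Venus-negative, n = 3 libraries), CCL21-RANK+ (tdTomato-negative, Venus-positive, n = 3) and CCL21-RANK- (negative for both, n = 2). Libraries held 42751839 to 71625282 expected counts. The study's reporting checklist describes its replicates as biological, and the labels do not say whether they came from separate embryos or litters. The p-values measure the spread between these libraries. By RNA, Ccl21a was at 561, 346 and 305 RPKM in CCL21+RANK- replicates 1 to 3, at 152, 95.9 and 78.2 RPKM in CCL21-RANK+ replicates 1 to 3, and at 6.89 and 8.88 RPKM in CCL21-RANK- replicates 1 and 2. CCL21-RANK+ TECs, sorted as tdTomato-negative, thus held Ccl21a RNA above the double-negative libraries (log2 fold change 3.66 ± 0.35, SE, adjusted p = 2.49e-05 by edgeR). Tnfrsf11a was at 8.78, 9.44 and 10.3 RPKM, then 111, 93.1 and 107 RPKM, then 2.62 and 2.26 RPKM in the same order, highest in every CCL21-RANK+ library. None of 10 TEC markers was at 0 in any library, and the defining genes Epcam and Foxn1 were at 49.5 RPKM or more in all 8. Parathyroid genes were high in CCL21+RANK- libraries alone, where the 4 markers summed to 7122, 1750 and 1955 RPKM in replicates 1 to 3, against 11.1 to 24.9 RPKM in the other 5 libraries.

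Hox genes encode homeodomain transcription factors. They lie in clusters, and the order of the genes along a cluster follows the order of their expression along the body axis, so that low paralog numbers mark the hindbrain and pharyngeal arches and high numbers mark the trunk, hindgut, limb and tail. Hoxa3 is needed for the third pharyngeal pouch to form thymus and parathyroid, retinoic acid and the Cdx factors are known activators of Hox genes, and Polycomb complexes keep them silent outside their domains. In GRCm38 (mm10) the clusters are Hoxa at chr6:52155590-52260880 (11 genes), Hoxb at chr11:96194316-96368256 (10 genes), Hoxc at chr15:102921103-103036852 (9 genes) and Hoxd at chr2:74668310-74765142 (9 genes).

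Promoter windows from RefSeq (GRCm38.p6, 250 bases before to 50 bases after an annotated start) were matched for 22 of the 39 genes, in 24 windows. The 4 shown stand for the patterns described below: Hoxa2, the most abundant member in each population; Hoxa7, called up in CCL21+RANK- TECs relative to both other populations; and Hoxb8 and Hoxc4, counted only or mainly in CCL21-RANK+ TECs. Each is printed 5′ to 3′ on the strand of its gene, and capitals mark the Cdx-type motif TTTATG and the nuclear receptor core site AGGTCA on either strand (CATAAA and TGACCT in reverse). They lie at chr6:52164782-52165081 (minus strand), chr6:52218524-52218823 (minus), chr11:96281655-96281954 (plus) and chr15:103034145-103034444 (plus).
Hoxa2: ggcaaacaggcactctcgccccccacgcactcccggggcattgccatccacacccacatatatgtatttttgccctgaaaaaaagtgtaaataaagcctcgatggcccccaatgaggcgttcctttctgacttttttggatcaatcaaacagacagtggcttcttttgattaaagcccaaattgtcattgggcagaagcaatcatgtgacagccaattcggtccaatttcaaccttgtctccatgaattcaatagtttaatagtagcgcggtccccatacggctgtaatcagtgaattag
Hoxa7: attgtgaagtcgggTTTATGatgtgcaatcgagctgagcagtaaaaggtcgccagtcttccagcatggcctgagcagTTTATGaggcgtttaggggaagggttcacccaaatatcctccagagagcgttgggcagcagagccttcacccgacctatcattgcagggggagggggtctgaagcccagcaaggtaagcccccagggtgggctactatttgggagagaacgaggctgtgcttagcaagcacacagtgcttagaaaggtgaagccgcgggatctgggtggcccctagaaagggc
Hoxb8: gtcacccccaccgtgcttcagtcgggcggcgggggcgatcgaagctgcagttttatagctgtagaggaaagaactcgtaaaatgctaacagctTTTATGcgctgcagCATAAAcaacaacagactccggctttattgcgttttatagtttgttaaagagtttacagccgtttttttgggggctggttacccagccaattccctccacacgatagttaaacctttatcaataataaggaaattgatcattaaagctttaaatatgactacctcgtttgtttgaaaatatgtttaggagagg
Hoxc4: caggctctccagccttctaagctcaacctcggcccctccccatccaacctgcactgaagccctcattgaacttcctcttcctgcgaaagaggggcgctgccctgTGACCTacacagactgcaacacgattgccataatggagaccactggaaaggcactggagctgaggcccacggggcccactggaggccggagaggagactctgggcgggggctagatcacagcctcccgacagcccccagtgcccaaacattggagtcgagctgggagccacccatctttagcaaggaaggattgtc

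TTTATG was present in the Hoxa7 window, 2 times, and in the Hoxb8 window, 2 times, and AGGTCA was present once in the Hoxc4 window. The Hoxa2 window held neither. The matches did not overlap in these windows, and in the Hoxd3 window a TTTATG and an AGGTCA match overlapped. Over all Hox windows, TTTATG was in 5 of 24 (20.8%), against 11.9% of all 32851 windows of the same length, and AGGTCA was in 7 of 24 (29.2%), against 16.3%. The Pbx-Hox type motif TGATNNAT was in 4 of 24 Hox windows and 8.85% of all windows, and TATAAA was in 4 of 24 and 13.6%. Genes higher in CCL21+RANK- TECs (Hoxa7) and genes higher in CCL21-RANK+ TECs (Hoxb8, Hoxd3, Hoxd4) both had a TTTATG match. A match is a string of letters and not a measured site.

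The populations differed in which part of the Hox family they expressed. CCL21+RANK- and CCL21-RANK- TECs held RNA mainly from anterior Hoxa and Hoxb genes, with summed anterior levels of 22.3 ± 2.53 (SD, n = 3) and 23.4 ± 1.90 (SD, n = 2) RPKM. CCL21-RANK+ TECs held less anterior RNA, 6.27 ± 1.49 RPKM (SD, n = 3), and posterior RNA at 4.83 ± 2.28 RPKM (SD, n = 3). RPKM is the count per length of exon, scaled to the total of the library, and it is used for every level below.

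**Figure D1:**
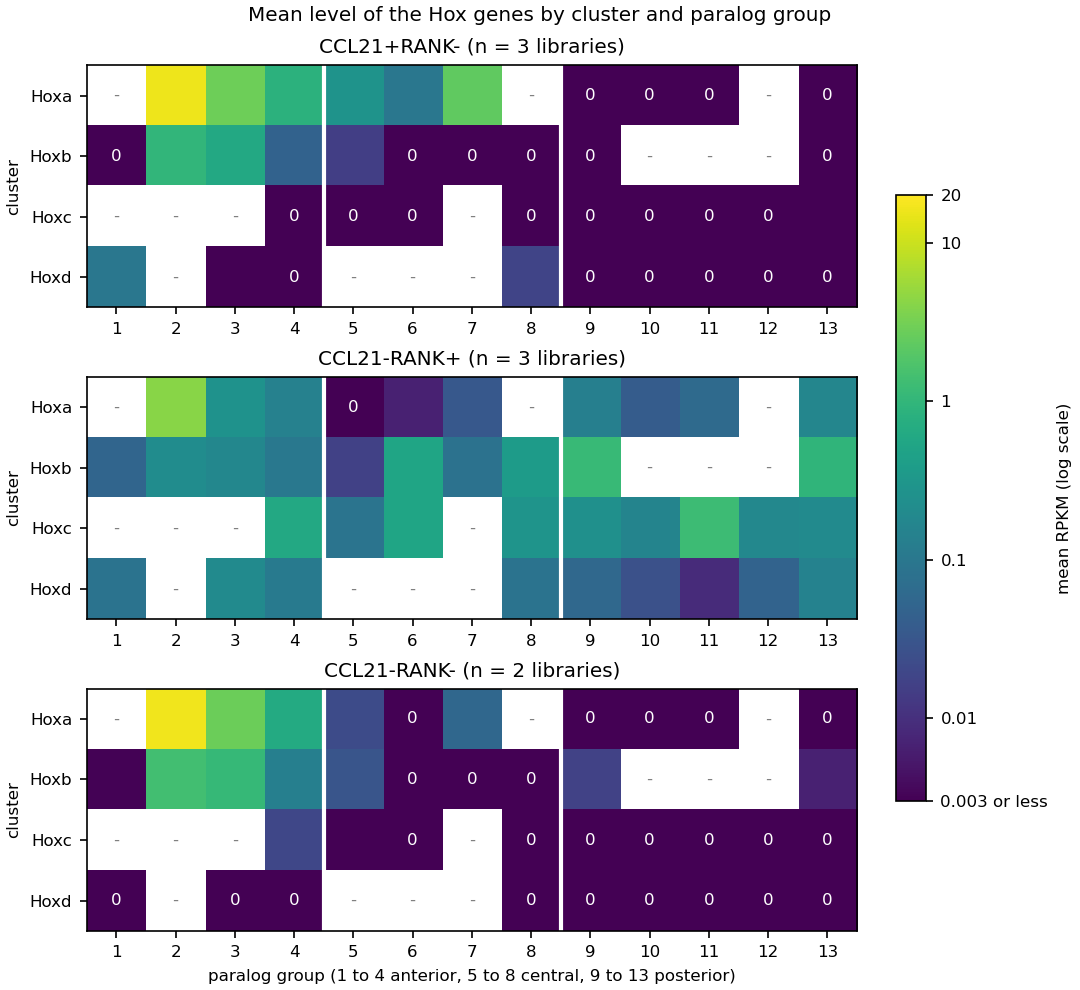
Mean RPKM (colour, log scale) of the Hox genes by cluster (rows) and paralog group (columns) in the 3 populations; 0 marks no count in any library of the population, and a dash marks a position with no gene or with one not reported here. The colour is strongest in Hoxa2 and Hoxa3, followed by Hoxa7 and Hoxb2, for CCL21+RANK- TECs, and in Hoxa2, Hoxa3, Hoxb2 and Hoxb3 for CCL21-RANK- TECs, and it covers nearly the whole grid for CCL21-RANK+ TECs.

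By library, the anterior sum was 19.4, 23.4 and 24.2 RPKM in CCL21+RANK- replicates 1 to 3, 5.47, 7.99 and 5.34 RPKM in CCL21-RANK+ replicates 1 to 3, and 24.7 and 22.1 RPKM in CCL21-RANK- replicates 1 and 2. The posterior sum was 0, 0.00883 and 0 RPKM, then 7.41, 3.08 and 4.00 RPKM, then 0.0307 and 0.0163 RPKM, in the same order. The CCL21-RANK+ libraries were below all others in anterior RNA and above all others in posterior RNA, with no overlap in either sum. Posterior genes thus made up 25.7% to 46.1% of summed Hox RPKM in CCL21-RANK+ libraries and 0.124% or less in the others. All 16 posterior genes together gave 1 count in the 3 CCL21+RANK- libraries, 5 and 3 in those of CCL21-RANK- TECs, and 999, 353 and 404 counts in CCL21-RANK+ replicates 1 to 3. The posterior level in CCL21-RANK+ TECs was highest in replicate 1 and was 3.54 RPKM on average without it. In bulk RNA, fewer cells expressing a gene and less RNA per cell cannot be told apart.

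**Figure D2:**
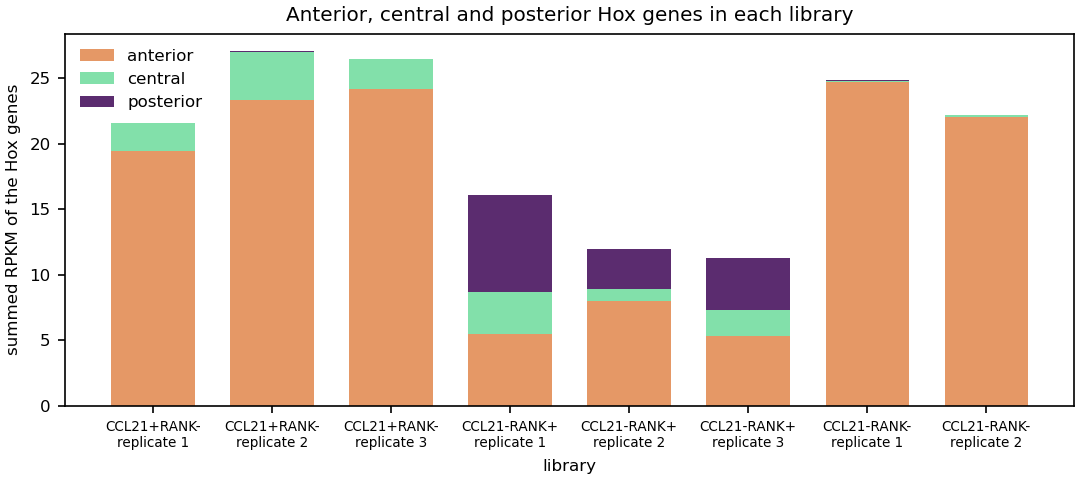
Summed RPKM (vertical axis, from 0) of anterior, central and posterior Hox genes in each of the 8 libraries (bars). The posterior segment is visible only in the 3 CCL21-RANK+ libraries, at 7.41, 3.08 and 4.00 RPKM.

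Hoxa2, which patterns the hindbrain and the second pharyngeal arch, was the most abundant Hox gene in every library. It was at 12.6, 17.1 and 18.2 RPKM in CCL21+RANK- replicates 1 to 3, at 2.94, 6.27 and 3.29 RPKM in CCL21-RANK+ replicates 1 to 3, and at 17.9 and 15.0 RPKM in CCL21-RANK- replicates 1 and 2. All CCL21-RANK+ libraries were below all others. The log2 fold change was 2.04 ± 0.31 (SE, adjusted p = 0.000403) in CCL21+RANK- over CCL21-RANK+ TECs, and -2.09 ± 0.33 (adjusted p = 0.000608) in CCL21-RANK+ over CCL21-RANK- TECs. These 2 comparisons share the CCL21-RANK+ libraries. Hoxa2 was therefore reduced in CCL21-RANK+ TECs but remained at 4.17 ± 1.83 RPKM (SD, n = 3).

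Hoxa3, the gene of the third pouch, was lower in level and differed more. It was at 2.86, 2.66 and 2.93 RPKM in CCL21+RANK- replicates 1 to 3, at 0.177, 0.325 and 0.311 RPKM in CCL21-RANK+ replicates 1 to 3, and at 2.73 RPKM in both CCL21-RANK- libraries. The CCL21+RANK- and CCL21-RANK- libraries were within one narrow range, and the CCL21-RANK+ libraries lay far below it. The log2 fold change was 3.49 ± 0.26 (SE, adjusted p = 4.01e-06) in CCL21+RANK- over CCL21-RANK+ TECs and -3.45 ± 0.27 (adjusted p = 6.97e-06) in CCL21-RANK+ over CCL21-RANK- TECs. The annotated span of Hoxa3 runs over Hoxa4, Hoxa5 and Hoxa6, so that reads in shared exons may have been divided among them. On its longest transcript in place of all exons together, Hoxa3 was at 6.54 RPKM for CCL21+RANK- and 0.629 RPKM for CCL21-RANK+ TECs.

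Hoxb2 and Hoxb3, the Hoxb paralogs of these genes, were also lowest in CCL21-RANK+ TECs, at lower mean levels. Hoxb2 was at 0.927, 1.02 and 1.04 RPKM in CCL21+RANK- replicates 1 to 3, at 0.220, 0.200 and 0.228 RPKM in CCL21-RANK+ replicates 1 to 3, and at 1.22 and 1.54 RPKM in CCL21-RANK- replicates 1 and 2. Hoxb3 was at 0.556, 0.685 and 0.615 RPKM, then 0.255, 0.131 and 0.138 RPKM, then 1.18 and 1.04 RPKM. For both genes every CCL21-RANK+ library was lowest and every CCL21-RANK- library was highest. The log2 fold change of CCL21-RANK+ over CCL21-RANK- TECs was -2.78 ± 0.30 for Hoxb2 (SE, adjusted p = 6.01e-05) and -2.80 ± 0.38 for Hoxb3 (adjusted p = 0.000257). The contrast of CCL21+RANK- with CCL21-RANK- TECs did not pass the test for either (adjusted p = 0.378 and 0.191).

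**Figure D3:**
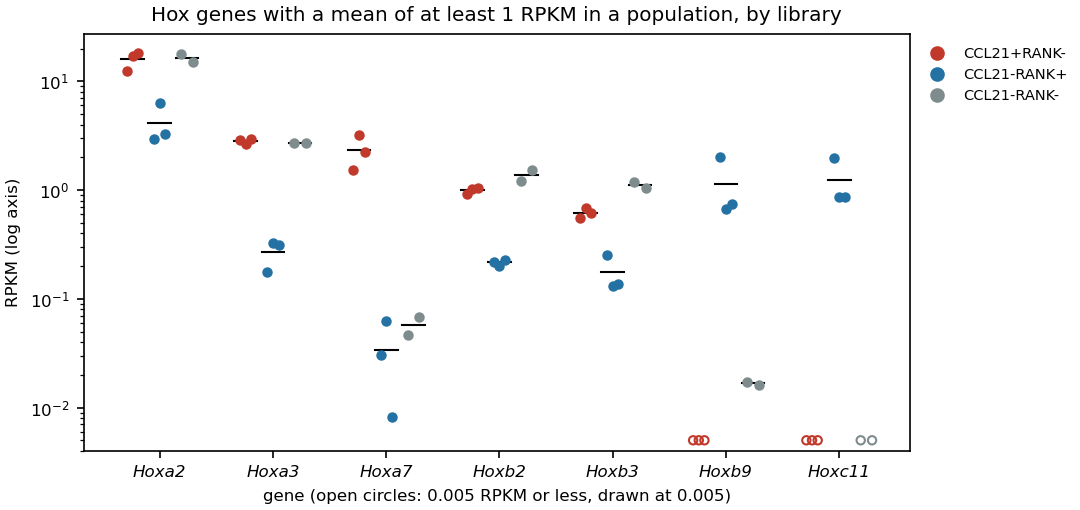
RPKM (log axis) of the 7 Hox genes with a mean of at least 1 RPKM in a population, 1 point per library and a line at the mean; open circles are values of 0.005 RPKM or less. Hoxa2, Hoxa3, Hoxb2 and Hoxb3 are lowest in CCL21-RANK+ TECs, Hoxa7 is high in CCL21+RANK- TECs, and Hoxb9 and Hoxc11 are high in CCL21-RANK+ TECs.

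Hoxa4, which lies within the span of Hoxa3, was below Hoxa3 in mean level in each population. It had means of 0.864 RPKM in CCL21+RANK-, 0.142 RPKM in CCL21-RANK+ and 0.654 RPKM in CCL21-RANK- TECs. It passed the adjusted p threshold of 0.05 in each comparison with CCL21-RANK+ TECs (adjusted p = 0.00301 and 0.0109) and did not pass between the other populations (adjusted p = 0.729). Without CCL21-RANK- replicate 1, which left 1 library there that was assumed to vary like the other groups, the log2 fold change of CCL21-RANK+ over CCL21-RANK- TECs was -2.26 with adjusted p = 0.0508, and over all alternatives it stayed between -2.6 and -1.96 (adjusted p 0.00257 to 0.0508).

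Hoxa7 was the Hox gene called when comparing CCL21+RANK- with CCL21-RANK- TECs. It was at 1.54, 3.18 and 2.22 RPKM in CCL21+RANK- replicates 1 to 3, at 0.0303, 0.0624 and 0.00813 RPKM in CCL21-RANK+ replicates 1 to 3, and at 0.0464 and 0.0680 RPKM in CCL21-RANK- replicates 1 and 2. Its counts were 264, 421 and 352 in CCL21+RANK- libraries and 14 or fewer in each of the other 5, without overlap. The log2 fold change was 6.17 ± 0.62 over CCL21-RANK+ TECs (SE, adjusted p = 2.9e-05) and 5.34 ± 0.70 over CCL21-RANK- TECs (adjusted p = 0.00146). Outside CCL21+RANK- libraries, only CCL21-RANK- replicate 2 reached 10 counts. Hoxa7 thus entered the test mainly through the libraries in which it was higher, and its adjusted p is a description. Within the Hoxa cluster its neighbours Hoxa5 and Hoxa6 were low: Hoxa5 gave 30, 37 and 14 counts in CCL21+RANK- libraries, 0 in every CCL21-RANK+ library and 2 and 4 in CCL21-RANK- libraries, which did not overlap with those of CCL21+RANK- TECs although the test did not pass (log2 fold change 3.59 ± 1.16, SE, adjusted p = 0.0962), and Hoxa6 gave 14, 1 and 0 counts in CCL21+RANK- libraries and 1 count in all others together. With 3 counts per library as the floor, Hoxa5 was at least 8.56-fold higher in CCL21+RANK- relative to CCL21-RANK+ TECs. Hoxa5 reached 10 counts only in CCL21+RANK- libraries, so it entered the test only through them and its adjusted p is also a description. Pth, the parathyroid hormone gene, was at 3001, 848 and 906 RPKM in CCL21+RANK- replicates 1 to 3 and so was highest in replicate 1. Among these libraries Hoxa4, Hoxa6, Hoxd1 and Hoxd8 were also highest in replicate 1. Hoxa5 and Hoxa7 were highest in replicate 2, and Hoxa2 and Hoxa3 in replicate 3. The part of parathyroid cells in the level of Hoxa7 or of the other Hox genes was not tested. Among the abundant Hox genes of CCL21+RANK- TECs, Hoxa2 stood above all others, and Hoxa7 and Hoxa3 overlapped by library.

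Hoxb9 and Hoxc11, both posterior genes of the trunk and hindlimb levels of the body axis, were the Hox genes that reached a mean of 1 RPKM in CCL21-RANK+ TECs besides Hoxa2. Hoxb9 was at 2.03, 0.666 and 0.745 RPKM in CCL21-RANK+ replicates 1 to 3, at 0 in all 3 CCL21+RANK- libraries, and at 0.0173 and 0.0163 RPKM in CCL21-RANK- replicates 1 and 2. Hoxc11 was at 1.99, 0.858 and 0.856 RPKM in CCL21-RANK+ replicates 1 to 3 and at 0 in the other 5 libraries. Both were highest in CCL21-RANK+ replicate 1, and every CCL21-RANK+ library was above all others. Hoxb9 was at least 52.1-fold higher in CCL21-RANK+ relative to CCL21+RANK- TECs (adjusted p = 0.000125), and its 467 counts against 6 in CCL21-RANK- TECs gave a ratio per total of 72.1 (95% exact interval 32.9 to 197, counting error only; adjusted p = 0.001). Without CCL21-RANK+ replicate 1 that ratio was 41.9 (interval 18.9 to 116), from 168 counts against 6. Hoxc11 was at least 44.0-fold higher than in CCL21+RANK- TECs (adjusted p = 0.000302) and at least 57.7-fold higher than in CCL21-RANK- TECs (adjusted p = 0.000732). Without CCL21-RANK+ replicate 1 the means were 0.706 RPKM for Hoxb9 and 0.857 RPKM for Hoxc11, both below 1 RPKM. The bound over CCL21+RANK- TECs for Hoxb9 was then 32.1. Both genes passed the filter on low counts only through the CCL21-RANK+ libraries, where they were higher. Their adjusted p is therefore a description and adds no support for the difference.

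Hoxb13, the last gene of the Hoxb cluster, lay just below that level. It was at 1.75, 0.461 and 0.668 RPKM in CCL21-RANK+ replicates 1 to 3, at 0 in CCL21+RANK- libraries, and at 0.0134 and 0 RPKM in CCL21-RANK- replicates 1 and 2. The mean of 0.959 RPKM fell to 0.565 RPKM without replicate 1. The fold over CCL21+RANK- TECs was at least 37.4 (adjusted p = 0.000658), and at least 22.0 without replicate 1. Hoxb13 also passed the filter only through CCL21-RANK+ libraries, so this adjusted p is a description. On the other side of the level, Hoxb2 with 0.994 RPKM in CCL21+RANK- TECs was also just below, and Hoxb3 with 1.11 RPKM in CCL21-RANK- TECs was just above.

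The other Hox genes higher in CCL21-RANK+ TECs had means of 0.607 RPKM or less there. Of the 39 Hox genes, 23 gave more than 3 counts in every CCL21-RANK+ library, against 8 in every CCL21+RANK- library and 8 in every CCL21-RANK- library. A total of 11 of these 23 had no count in any of the other 5 libraries: Hoxa9, Hoxa13, Hoxb6, Hoxb8, Hoxc6, Hoxc9, Hoxc10, Hoxc11, Hoxc12, Hoxd4 and Hoxd13. The same pattern held for 3.71% of all 19908 genes with more than 3 counts in every CCL21-RANK+ library. Hoxb8 gave 122, 19 and 18 counts in CCL21-RANK+ replicates 1 to 3, Hoxb6 gave 108, 30 and 29, and Hoxc6 gave 80, 37 and 74. Hoxc4 gave 125, 56 and 59 counts in CCL21-RANK+ libraries, 0 in CCL21+RANK- libraries, and 4 and 3 in CCL21-RANK- libraries.

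Replicate 1 was not the highest for every such gene. Hoxc10 gave 6, 26 and 12 counts in CCL21-RANK+ replicates 1 to 3, and Hoxd9 gave 0, 14 and 4. Hoxc12 gave 6, 8 and 13 counts. Hoxc4 was at least 27.5-fold higher than in CCL21+RANK- TECs, and the lower bounds were 22.7 for Hoxc6, 18.6 for Hoxb6, 17.2 for Hoxb8, 13.4 for Hoxa9 and 5.32 for Hoxc10. Without CCL21-RANK+ replicate 1 the bound was 11.3 for Hoxb6 and 7.06 for Hoxb8, and without replicate 2 it was 3.4 for Hoxc10. These genes were chosen for display after their values were seen.

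By cluster, the Hoxa sum was 23.2 ± 3.03 RPKM in CCL21+RANK-, 5.16 ± 1.77 RPKM in CCL21-RANK+ and 20.8 ± 2.03 RPKM in CCL21-RANK- TECs, with SD over 3, 3 and 2 libraries. The Hoxb sum was 1.68 ± 0.173, 3.66 ± 2.54 and 2.68 ± 0.187 RPKM, with CCL21-RANK+ replicates at 6.59, 2.00 and 2.40 RPKM. The CCL21+RANK- libraries were below the other 5, and CCL21-RANK+ and CCL21-RANK- libraries overlapped. The Hoxc sum was 0.00294 ± 0.0051, 3.54 ± 1.18 and 0.0221 ± 0.00819 RPKM. The Hoxd sum was 0.118 ± 0.180, 0.776 ± 0.269 and 0 RPKM, and CCL21+RANK- replicates 1 to 3 gave 39, 2 and 1 Hoxd counts, of which Hoxd1 gave 30 in replicate 1. Hoxc RNA was thus at or near 0 outside CCL21-RANK+ TECs. Paralog number alone did not sort the genes: among anterior genes, Hoxc4, Hoxd3 and Hoxd4 were higher in CCL21-RANK+ TECs, and among central genes Hoxa5 and Hoxa7 were higher in CCL21+RANK- TECs. The annotated span of Hoxd4 lies within that of Hoxd3, so reads in shared exons may have been divided between them.

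In the test across all genes, 29 of the 39 Hox genes passed the filter on low counts. Of these, 19 had 10 counts in at least 2 libraries only among CCL21-RANK+ libraries, 3 of them anterior, 6 central and 10 posterior. They entered the test only through the libraries in which they were higher. Their number and their adjusted p are therefore a description. A gene was called where adjusted p was under 0.05, the fold change over 1.5 and the mean over 1 RPKM in the higher group. In CCL21+RANK- versus CCL21-RANK+ TECs, 3 Hox genes were called higher in CCL21+RANK- TECs (Hoxa2, Hoxa3 and Hoxa7; 15.4% of all 21451 genes tested were called in this direction) and 2 were called higher in CCL21-RANK+ TECs (Hoxb9 and Hoxc11; 15.4% of all genes). In CCL21-RANK+ versus CCL21-RANK- TECs, the same 2 were higher in CCL21-RANK+ TECs (14.4% of all genes), and Hoxa2, Hoxa3, Hoxb2 and Hoxb3 were higher in CCL21-RANK- TECs (15.1%). In CCL21+RANK- versus CCL21-RANK- TECs, Hoxa7 was called higher in CCL21+RANK- TECs (4.35% of all genes) and 0 Hox genes were higher in CCL21-RANK- TECs (3.66%). Without CCL21-RANK+ replicate 1 0 Hox genes were called up in that population in either comparison, while the counts in the opposite direction were still 3 and 4. With scaling that left out Gm26917 and Gm42418, the 3 called up in CCL21+RANK- TECs became 6, and the 2 called up in their CCL21-RANK+ counterparts became 3.

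With adjusted p under 0.05 alone, 8 Hox genes were higher in CCL21+RANK- relative to CCL21-RANK+ TECs (23.1% of all genes) and 17 were higher in CCL21-RANK+ TECs (30.6%). The first 8 were 6 of 12 anterior, 2 of 11 central and 0 of 16 posterior genes, among them Hoxa2 to Hoxa5, Hoxa7, Hoxb2 and Hoxb3. The 2 central genes, Hoxa5 and Hoxa7, entered the test only or mainly through the CCL21+RANK- libraries, where they were higher. Their adjusted p is a description. The 17 were 3 anterior, 5 central and 9 posterior genes, and 8 of them were in the Hoxc cluster. In CCL21-RANK+ versus CCL21-RANK- TECs, 16 were higher in CCL21-RANK+ TECs (27% of all genes) and 6 were higher in CCL21-RANK- TECs (21.9%), all 6 anterior. The 16 became 10 without CCL21-RANK- replicate 1 and 9 without replicate 2, in fits where the lone library left was assumed to vary like the other groups. Comparing CCL21+RANK- with CCL21-RANK- TECs, Hoxa7 alone was higher in CCL21+RANK- TECs (6.28% of all genes) and 0 were higher in CCL21-RANK- TECs (5.15%). With 3 libraries against 2, a gene that did not pass is not shown to be equal, and 2 passed with the DESeq2 Wald test and with only the libraries compared.

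Some Hox genes gave no difference in the test. Hoxb4, an anterior gene, gave 0, 8 and 11 counts in CCL21+RANK-, 29, 4 and 9 in CCL21-RANK+ and 19 and 29 in CCL21-RANK- libraries, so that CCL21-RANK+ libraries overlapped with each of the others, and those of CCL21+RANK- TECs were below those of CCL21-RANK- TECs (adjusted p = 0.512 for CCL21+RANK- versus CCL21-RANK+ and 0.524 for CCL21+RANK- versus CCL21-RANK- TECs). Hoxd1 (adjusted p = 0.876), Hoxd8 (adjusted p = 0.296) and Hoxa11 (adjusted p = 0.064) also did not pass when comparing CCL21+RANK- with CCL21-RANK+ TECs. The 10 genes left out by the filter were Hoxa6, Hoxa10, Hoxb1, Hoxb5, Hoxb7, Hoxc12, Hoxd9, Hoxd10, Hoxd11 and Hoxd12, each with 20 counts or fewer in every library. With no filter, which put all 39 in the test, the Hox genes with adjusted p under 0.05 that were higher in CCL21-RANK+ relative to CCL21+RANK- TECs went from 17 to 18, and the other counts for these populations were as before.

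Known regulators of Hox transcription included genes of both directions. Of 11 such genes tested, 1 was called up in CCL21+RANK- TECs and 3 in their CCL21-RANK+ counterparts (15.4% of all genes each way), with a median log2 fold change of -1.35 against -0.11 for all genes tested. Cdx1, a ParaHox activator of central and posterior Hox genes, was at 188, 144 and 159 RPKM in CCL21-RANK+ replicates 1 to 3, at 0.124, 0.410 and 0.166 RPKM in CCL21+RANK- replicates 1 to 3, and at 1.12 and 0.136 RPKM in CCL21-RANK- replicates 1 and 2. Every CCL21-RANK+ library was far above every other library. The log2 fold change was -9.38 ± 0.69 in CCL21+RANK- over CCL21-RANK+ TECs (SE, adjusted p = 4.2e-06). Its paralog Cdx2 was at 3.60, 1.72 and 2.18 RPKM in CCL21-RANK+ libraries and at 0.00961 RPKM or less elsewhere. Gdf11, a secreted factor that promotes posterior Hox expression in the trunk, had means of 3.26 ± 1.01 RPKM (SD, n = 3) for CCL21-RANK+ and 1.16 ± 0.265 RPKM (SD, n = 3) for CCL21+RANK- TECs (log2 fold change -1.35 ± 0.26, SE, adjusted p = 0.00191). Zbtb16 was called when comparing CCL21+RANK- with CCL21-RANK- TECs (log2 fold change 2.42 ± 0.29, SE, adjusted p = 0.00106). It was also called higher in CCL21-RANK+ over CCL21-RANK- TECs (2.69 ± 0.30, adjusted p = 6.38e-05). Its means were 1.53, 2.02 and 0.288 RPKM in CCL21+RANK-, CCL21-RANK+ and CCL21-RANK- TECs.

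Genes that make, bind and degrade retinoic acid were called in both directions. Of 18 tested, 8 were called up in CCL21+RANK- TECs and 5 in their CCL21-RANK+ counterparts, where 15.4% of all genes were called each way, with a median log2 fold change of -0.01 against -0.11 for all genes. Cyp26a1, which degrades retinoic acid, was at 37.0, 14.8 and 20.4 RPKM in CCL21-RANK+ replicates 1 to 3 and at 0.321 RPKM or less in the other 5 libraries (log2 fold change -10.65 ± 0.78 in CCL21+RANK- over CCL21-RANK+, SE, adjusted p = 4.11e-06). In CCL21+RANK- replicates 1 to 3 Cyp26a1 was near the floor, at 0.0254, 0.011 and 0 RPKM. The size of this fold change is thus poorly determined, and its adjusted p is a description. Crabp1, a cellular retinoic acid-binding protein, was at 39.9, 9.996 and 17.3 RPKM against 0.487 RPKM or less, and Stra6, the retinol uptake receptor, was at 32.7, 30.5 and 33.9 RPKM against 0.507 RPKM or less. Aldh1a2, the main retinoic acid-producing enzyme of the trunk, was at 2.00, 0.810 and 1.14 RPKM against 0.0801 RPKM or less. All 4 were called higher in CCL21-RANK+ TECs in both comparisons with them, and the groups did not overlap.

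Other members with the same functions were lower in CCL21-RANK+ TECs. Crabp2, the most abundant retinoid gene in CCL21-RANK- TECs, was at 25.6, 29.2 and 36.7 RPKM in CCL21+RANK-, 7.90, 5.42 and 5.22 RPKM in CCL21-RANK+ and 70.8 and 95.3 RPKM in CCL21-RANK- libraries. The 3 populations did not overlap, and all 3 differences were called. Cyp26b1, named after its values were seen because it is the paralog of Cyp26a1, was at 33.8, 41.1 and 45.1 RPKM in CCL21+RANK-, 4.47, 4.34 and 2.84 RPKM in CCL21-RANK+ and 32.7 and 27.8 RPKM in CCL21-RANK- libraries (log2 fold change 3.48 ± 0.20 in CCL21+RANK- over CCL21-RANK+, SE, adjusted p = 1.27e-06). CCL21-RANK+ libraries thus had the highest Cyp26a1 and Crabp1 and the lowest Cyp26b1 and Crabp2. Comparing CCL21+RANK- with CCL21-RANK- TECs, besides Crabp2, Aldh1a1 was lower in CCL21+RANK- TECs (log2 fold change -2.40 ± 0.63, SE, adjusted p = 0.0371) and Aldh1a3 was higher (1.54 ± 0.38, adjusted p = 0.0306).

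**Figure D4:**
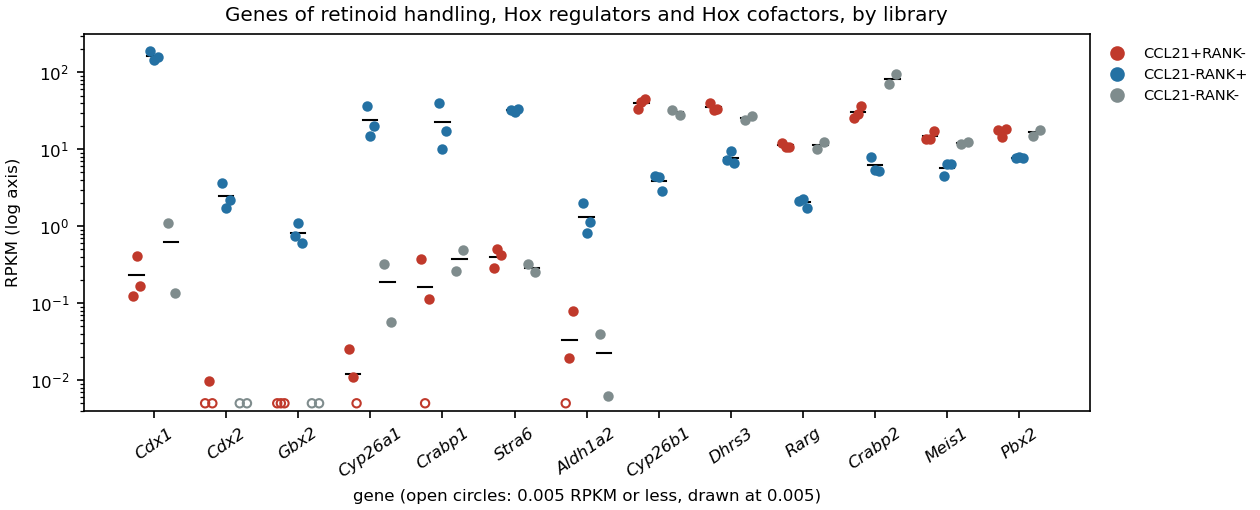
RPKM (log axis) of genes that act on or with Hox genes, 1 point per library and a line at the mean; open circles are values of 0.005 RPKM or less. Cdx1 to Aldh1a2 on the left are highest in CCL21-RANK+ TECs, and Cyp26b1 to Pbx2 on the right are lowest there.

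The TALE homeodomain proteins, which bind DNA together with Hox proteins, were in part lower in CCL21-RANK+ TECs. Of 9 genes, 4 were called higher in CCL21+RANK- relative to CCL21-RANK+ TECs and 0 lower (15.4% of all genes in each direction), with a median log2 fold change of 0.52 against -0.11 for all genes. Meis1 was at 13.6, 13.7 and 17.3 RPKM in CCL21+RANK-, 4.51, 6.47 and 6.35 RPKM in CCL21-RANK+ and 11.6 and 12.6 RPKM in CCL21-RANK- libraries (log2 fold change 1.47 ± 0.16 in CCL21+RANK- over CCL21-RANK+, SE, adjusted p = 5.67e-05). Pbx2, the most abundant of the list in CCL21+RANK- and CCL21-RANK- TECs on average, had means of 16.8, 7.81 and 16.6 RPKM in the same order (1.22 ± 0.10, adjusted p = 7.23e-06). Pknox2 (0.81 ± 0.17, adjusted p = 0.00286) and Meis2 (0.62 ± 0.12, adjusted p = 0.00183) were also called. In CCL21-RANK+ versus CCL21-RANK- TECs, Pbx2 and Meis1 were lower and Meis3 was higher in CCL21-RANK+ TECs. Comparing CCL21+RANK- with CCL21-RANK- TECs, Pknox2 alone was called, higher in CCL21+RANK- TECs (0.91 ± 0.19, adjusted p = 0.0158).

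Polycomb genes were called in both directions. Of 24, 8 were called up in CCL21+RANK- TECs and 4 in their CCL21-RANK+ counterparts (15.4% of all genes each way), with a median log2 fold change of 0.30 against -0.11 for all genes. Among the 8 were Cbx6, Cbx8, Pcgf2, Phc2, Ring1 and Rnf2, subunits of Polycomb repressive complex 1, and Phf1, a partner of complex 2, and the 4 were Ezh2, Eed, Jarid2 and Phf19, subunits or partners of complex 2. The complexes were not split by direction, since Phf1 went against Phf19, and the complex 1 gene Phc3 passed by adjusted p alone in the direction of the 4 (-0.35 ± 0.11, adjusted p = 0.0209). Cbx6, the most abundant in CCL21+RANK- and CCL21-RANK- TECs, was at 63.9, 65.8 and 71.1 RPKM in CCL21+RANK-, 17.8, 21.8 and 17.1 RPKM in CCL21-RANK+ and 78.5 and 93.8 RPKM in CCL21-RANK- libraries (log2 fold change 1.94 ± 0.14, SE, adjusted p = 4.07e-06). Pcgf2 had means of 20.6, 5.72 and 19.3 RPKM (1.96 ± 0.13, adjusted p = 2.67e-06), and Phf1 was also higher (1.60 ± 0.16, adjusted p = 2.7e-05). Ezh2, the H3K27 methyltransferase, was at 2.61, 2.49 and 3.14 RPKM in CCL21+RANK-, 8.90, 9.57 and 10.9 RPKM in CCL21-RANK+ and 4.56 and 4.51 RPKM in CCL21-RANK- libraries (-1.72 ± 0.12, adjusted p = 3.65e-06). In CCL21-RANK+ versus CCL21-RANK- TECs, 3 were higher (14.4% of all genes) and 9 lower (15.1%) in CCL21-RANK+ TECs, with a median log2 fold change of -0.38 against 0.06 for all genes. Among 12 Trithorax and H3K27 demethylase genes, Ash2l was called higher in CCL21+RANK- TECs (0.63 ± 0.14, adjusted p = 0.00486) and the demethylase Kdm6a higher in CCL21-RANK+ TECs (-0.61 ± 0.17, adjusted p = 0.0136).

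Factors that act in the third pharyngeal pouch were next compared. Of 13, 6 were called up in CCL21+RANK- TECs and 1 in their CCL21-RANK+ counterparts (15.4% of all genes each way), with a median log2 fold change of 0.76 against -0.11 for all genes. Pax1, a factor of pouch and thymus growth, was at 219, 244 and 296 RPKM in CCL21+RANK-, 34.1, 61.5 and 47.0 RPKM in CCL21-RANK+ and 282 and 302 RPKM in CCL21-RANK- libraries (log2 fold change 2.51 ± 0.23, SE, adjusted p = 1.65e-05). Gcm2, the parathyroid factor, was at 12.0, 4.05 and 5.05 RPKM in CCL21+RANK- libraries and at 0.122 RPKM or less in the others (6.67 ± 0.74, adjusted p = 5.46e-05). Tbx3 was at 7.68, 4.83 and 4.92 RPKM in CCL21-RANK+ libraries and at 0.0492 RPKM or less in the others (-7.88 ± 0.52, adjusted p = 2.29e-06). Tbx1 had a log2 fold change of 1.29 ± 0.41 (adjusted p = 0.0242). Comparing CCL21+RANK- with CCL21-RANK- TECs, Gcm2 and Tbx1 were called, both higher in CCL21+RANK- TECs.

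Of 11 noncoding genes of the clusters, 10 were in the table and 5 were tested, of which 2 were called up in CCL21+RANK- TECs and 0 in their CCL21-RANK+ counterparts (15.4% of all genes each way), with a median log2 fold change of 2.56 against -0.11 for all genes. Hoxaas2, an antisense gene of the Hoxa cluster, was at 2.99, 2.81 and 3.45 RPKM in CCL21+RANK-, 0.265, 0.581 and 0.376 RPKM in CCL21-RANK+ and 1.93 and 1.46 RPKM in CCL21-RANK- libraries (log2 fold change 3.02 ± 0.34 in CCL21+RANK- over CCL21-RANK+, SE, adjusted p = 5.52e-05). Hotairm1, at the anterior end of the Hoxa cluster, had means of 1.25, 0.231 and 1.37 RPKM (2.56 ± 0.51, adjusted p = 0.00228). Hoxb3os had a log2 fold change of -3.98 ± 0.43 in CCL21-RANK+ over CCL21-RANK- TECs (adjusted p = 5.49e-05). The strand setting of the counting is not given in the sources used here, so these genes and their coding partners may share reads.

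The 3 nearest protein-coding genes on each side of each cluster, 24 in all, lay up to 910371 bases away. Of these 23 were tested, and 4 were called up in CCL21+RANK- TECs and 3 in their CCL21-RANK+ counterparts, near the 15.4% of all genes called each way, with a median log2 fold change of -0.21 against -0.11 for all genes. Calcoco1, 198925 bases from the Hoxc cluster, had means of 83.3, 12.4 and 73.8 RPKM in CCL21+RANK-, CCL21-RANK+ and CCL21-RANK- TECs (log2 fold change 2.86 ± 0.15, SE, adjusted p = 7.98e-07), the direction opposite to that of the Hoxc genes. Skap2, 143041 bases from the Hoxa cluster, had 2.98, 0.951 and 2.13 RPKM (1.77 ± 0.14, adjusted p = 7.61e-06), the direction of the anterior Hoxa genes. Nfe2l2 (1.09 ± 0.11, adjusted p = 2.36e-05) was higher in CCL21+RANK- TECs and Snx11 (-0.87 ± 0.12, adjusted p = 0.000259) was higher in CCL21-RANK+ TECs. Evx1, a homeobox gene at the posterior end of the Hoxa cluster that was named after its values were seen, was at 0.0182, 0.152 and 0.179 RPKM in CCL21-RANK+ replicates 1 to 3 and at 0 in the other 5 libraries. Hnrnpa1, the most abundant neighbour, was not called (-0.37 ± 0.19, adjusted p = 0.121).

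Several marker sums of other cell types, though not the parathyroid or erythroid sums, were higher in every CCL21-RANK+ library than in all others. The T lineage sums overlapped between CCL21-RANK+ and CCL21+RANK- libraries. Of 9 mesenchyme markers, 5 were called higher in CCL21-RANK+ relative to CCL21+RANK- TECs and 0 lower (15.4% of all genes each way). Called higher in the same comparison were 2 of 4 thyroid and ultimobranchial, 2 of 5 neural and glial and 1 of 5 tested endothelial markers. The counts were 2 of 6 for myeloid and B lineage and 2 of 8 for T lineage markers, with 0 lower in each list. The mesenchyme sum was 52.9, 27.2 and 33.1 RPKM in CCL21-RANK+ replicates 1 to 3 and 4.36 RPKM or less in the other 5 libraries, with Col1a1 the most abundant at 24.0 RPKM in replicate 1, while the defining transcription factor Prrx1 was at 0.0442 RPKM or less and Twist1 was at 0.150, 0 and 0.0575 RPKM there, below its 1.28, 0.814 and 0.769 RPKM in CCL21+RANK- libraries. The 4 thyroid and ultimobranchial markers summed to 30.3, 8.76 and 8.94 RPKM in CCL21-RANK+ libraries (Calca the most abundant, 28.2 RPKM in replicate 1, with the defining factor Nkx2-1 at 0.0246, 0 and 0.280 RPKM) against 0.568 RPKM or less. The 5 neural and glial markers summed to 3.80, 2.39 and 3.04 RPKM (Tubb3 at 1.54 RPKM or less and Sox10 at 1.16 RPKM or less) against 0.484 RPKM or less, the 6 endothelial markers to 4.25, 2.36 and 1.90 RPKM (Tek at 2.18 RPKM or less) against 0.467 RPKM or less, and the 6 myeloid and B lineage markers to 7.02, 1.74 and 4.05 RPKM (Fcer1g at 1.79 RPKM or less) against 0.434 RPKM or less. T lineage markers summed to 20.1, 8.85 and 15.9 RPKM in CCL21-RANK+, 10.5, 4.07 and 5.88 RPKM in CCL21+RANK- and 3.33 and 2.85 RPKM in CCL21-RANK- libraries (Rag1 at 6.31 RPKM or less). The mesenchyme, thyroid and ultimobranchial, neural and glial, endothelial, myeloid and B lineage, and T lineage sums were all highest in CCL21-RANK+ replicate 1, as was the posterior Hox sum. Erythroid markers, with Hbb-bs the most abundant in 7 of 8 libraries, ranged from 5.45 RPKM to 318 RPKM and were highest in CCL21-RANK- replicate 1. Aire, the regulator through which medullary TECs express genes of peripheral tissues, was at 131, 94.1 and 114 RPKM in CCL21-RANK+ libraries and at 0.810 RPKM or less in the others. The part of these cell types, and of Aire-dependent expression, in the Hox values was not tested.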

How the data were processed

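Bulk RNA-seq of 8 libraries from E17 TECs was deposited by the authors as 1 table of RSEM expected counts per gene for all libraries; the submitters' processing notes name bcl2fastq 2.20, Trimmomatic, STAR 2.5.1, RSEM 1.3.1 and mm10, whereas the study's methods name another library kit and CLC Genomics Workbench. The labels name a directional library kit. Expected counts are estimates that need not be whole, and they were rounded for the test. Reads shared between overlapping Hox transcripts were divided by RSEM.

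The Hox genes, the related lists and the marker lists were chosen with earlier results of these data known. All 55450 identifiers matched GENCODE M21, whose merged exons gave the length for RPKM. All 8 libraries were fitted together with edgeR 4.0.16 (R 4.3.3; TMM, filterByExpr, quasi-likelihood test, Benjamini-Hochberg over 21451 genes; biological coefficient of variation 0.326). A fold against a population at 0 used a floor of 3 counts per library and is a lower bound. DESeq2 1.42.0 was an alternative. On simulated counts for CCL21+RANK- versus CCL21-RANK+ TECs, 171 of 200 genes changed 4-fold were recovered and 13 others passed, over 20440 genes, by adjusted p under 0.05 alone. The simulation gave every gene the same spread and did not cover genes near 0 in a population. Values in every library were given for Hox genes called or with a mean of at least 1 RPKM in a population, and from each related list for the called genes of largest fold change (up to 4 per comparison) and the most abundant gene. No library of a population repeated another within sampling noise. Some genes of these lists are counted in the totals but are not reported here by name.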

Additional observations from a re-analysis of the deposited data

How the results depend on the processing

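No Hox fold change with adjusted p under 0.05 turned its direction under any alternative that gave a value. The number of Hox genes called, comparing CCL21+RANK- with CCL21-RANK+ TECs (5), was 9 with scaling that left out Gm26917 and Gm42418 (6 higher in CCL21+RANK- TECs), 2 with at least 10 counts in every library, which left 4 Hox genes in the test, 25 with adjusted p alone, and 3 to 7 with 1 library left out. Without CCL21-RANK+ replicate 1, 3 were called and 0 of them were higher in CCL21-RANK+ TECs. For CCL21-RANK+ versus CCL21-RANK- TECs (6), it was 22 with adjusted p alone and 4 to 7 with 1 library left out, and the 4 without CCL21-RANK+ replicate 1 were all higher in CCL21-RANK- TECs. For CCL21+RANK- versus CCL21-RANK- TECs (1), it was 0 under the filter of 10 counts, since Hoxa7 was not tested there, and 1 with any library left out. By adjusted p alone, the counts 25, 1 and 22 became 4, 0 and 4 under that filter, and for CCL21+RANK- versus CCL21-RANK- TECs 2 with the DESeq2 Wald test and 2 with only the libraries compared. They were 20 to 26, 1 and 15 to 24 with 1 library left out, and the 16 Hox genes higher in CCL21-RANK+ relative to CCL21-RANK- TECs were 10 with CCL21-RANK- replicate 1 left out and 9 with replicate 2 left out, the lone library then being assumed to vary like the other groups. The number of Hox genes with a mean of at least 1 RPKM was 3 to 5 in CCL21+RANK- TECs, 1 to 4 in CCL21-RANK+ TECs and 4 in CCL21-RANK- TECs, with 1 library left out, the extremes being 5 when CCL21+RANK- replicate 3 was left out and 1 when CCL21-RANK+ replicate 1 was. With DESeq2 size factors, the median log2 fold change of all genes in CCL21-RANK+ over CCL21-RANK- TECs was 0.20 in place of 0.06.

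With the replicate number as a block, the counts by adjusted p were 24, 1 and 17 and the counts called were 5, 1 and 6. Hoxc10 lost its call by adjusted p in both comparisons with CCL21-RANK+ TECs, and Hoxa13, Hoxc9, Hoxd4 and Hoxd13 lost theirs against CCL21-RANK- TECs. The correlations of same-numbered deviations, CCL21+RANK- with CCL21-RANK+ libraries, were 0.126, 0.0485 and 0.0707. Those of differently numbered libraries of these populations were lower, from -0.0984 to 0.041. Same-numbered correlations with CCL21-RANK- libraries were -0.0528 and -0.117 for CCL21+RANK- and -0.0519 and -0.0411 for CCL21-RANK+ libraries. These values do not settle whether the numbers pair samples, and the main fit did not pair them.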
